A study of Mus musculus with 6 samples.

Results

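The strong distal elements lost in dKO cells are 341 regions of open chromatin among 10016 listed as changed between WT and dKO MLL-ENL-transformed mouse cells. They were chosen by their measured accessibility and by their position. Each had a mean level over both groups of at least 5 on the log2 scale of normalised reads, a dKO level at least 2 log2 units (4-fold) below the WT level, and a dKO level above 1.43. Each lay more than 1 kb from the start site of any annotated transcript and at most 100 kb from a protein-coding start site. Of the 4232 listed regions that met the conditions on mean level and position, 349 (8.25%) were at least 4-fold lower in dKO, and 8 of those were at or under the 1.43 limit. Over all 10016 listed regions, 17.3% were at least 4-fold lower in dKO. The levels and differences of these elements were therefore fixed in part by the selection and are given as a description.

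The assay was ATAC-seq, in which the transposase Tn5 cuts open DNA, so that the reads over a region report its accessibility. The cells were fetal liver cells of Cebpa fl/fl Cebpb fl/fl mice that had been transformed with a retrovirus carrying the fusion oncogene MLL-ENL and grown with interleukin-3. WT cells kept both genes and their labels name no vector. The dKO cells lacked Cebpa and Cebpb, carried a GFP vector and came from rare clones that survived the treatment with Cre and, per the study, expressed C/EBPε, so genotype, vector and clone cannot be told apart in this comparison. The remaining group, dKO cells with the rat C/EBPβ isoform LAP*, was not analysed here. Each group had 2 samples, and the values are group means without an error, because the table holds no value per library. The study states an average read number over its samples, but the table gives no depth per library, and the tests and intervals below concern sequence and position, not replicates. The deleted genes behaved as labelled: the region over the Cebpa start site stood at 9.99 in WT and at -0.15, the lowest level in the table, in dKO. Of the 5 regions nearest to Cebpb, the region over its start site fell from 8.60 to 3.37 and the one beside it from 7.38 to -0.15, while the other 3, at least 24326 bp from that start site, were higher in dKO by 1.97 to 2.48.

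C/EBP proteins are basic leucine zipper transcription factors that bind DNA as dimers. C/EBPα and C/EBPβ are known for driving the myeloid programme, in which they bind enhancers together with PU.1, RUNX1 and AP-1 factors and recruit coactivators that keep the chromatin open. Distal elements of this kind often lie in introns or between genes, and the gene nearest to an element need not be the gene it acts on.

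The sequences below show the kind of DNA that made up the lost distal elements. Each is the central 200 bp of one element, on the forward strand of mm10, named by its nearest protein-coding gene, with matches to the C/EBP consensus in capitals. The consensus was searched on both strands as TTGCNNAA or TTACNNAA, where N is any base. The first 6 are, of the elements with the highest WT level, the largest fall or a nearest gene from a fixed list, among those with the most matches and, among equals, the highest WT level. The 2 elements nearest to Plcb4 were added after the values were seen, because each held 3 matches.
Nectin1, chr9:43785860-43786059: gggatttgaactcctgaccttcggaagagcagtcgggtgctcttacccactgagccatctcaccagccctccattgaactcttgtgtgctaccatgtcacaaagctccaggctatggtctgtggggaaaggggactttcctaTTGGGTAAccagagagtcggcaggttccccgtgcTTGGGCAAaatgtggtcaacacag
Marco, chr1:120498140-120498339: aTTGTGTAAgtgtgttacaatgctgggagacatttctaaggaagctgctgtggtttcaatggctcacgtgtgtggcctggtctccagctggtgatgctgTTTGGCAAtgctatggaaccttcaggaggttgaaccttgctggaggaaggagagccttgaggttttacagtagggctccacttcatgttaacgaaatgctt
Kif26a, chr12:112227502-112227701: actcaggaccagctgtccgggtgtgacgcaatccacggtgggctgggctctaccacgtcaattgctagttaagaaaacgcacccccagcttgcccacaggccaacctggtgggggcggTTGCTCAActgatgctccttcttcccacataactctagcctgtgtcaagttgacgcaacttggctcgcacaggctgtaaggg
Zfp148, chr16:33318123-33318322: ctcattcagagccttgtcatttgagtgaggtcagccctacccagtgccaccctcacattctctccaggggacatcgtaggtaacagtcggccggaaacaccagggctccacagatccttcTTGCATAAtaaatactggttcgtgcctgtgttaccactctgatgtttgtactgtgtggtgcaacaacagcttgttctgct
CN725425, chr15:91282899-91283098: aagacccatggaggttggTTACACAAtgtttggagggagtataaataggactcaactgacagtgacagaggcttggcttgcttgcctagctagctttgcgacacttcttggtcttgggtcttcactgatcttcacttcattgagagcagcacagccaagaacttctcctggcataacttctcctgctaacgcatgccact
Igf2r, chr17:12722761-12722960: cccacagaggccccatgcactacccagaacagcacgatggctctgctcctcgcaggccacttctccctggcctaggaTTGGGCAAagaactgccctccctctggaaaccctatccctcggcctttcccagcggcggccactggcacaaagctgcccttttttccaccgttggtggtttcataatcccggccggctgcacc
Plcb4, chr2:135562610-135562809: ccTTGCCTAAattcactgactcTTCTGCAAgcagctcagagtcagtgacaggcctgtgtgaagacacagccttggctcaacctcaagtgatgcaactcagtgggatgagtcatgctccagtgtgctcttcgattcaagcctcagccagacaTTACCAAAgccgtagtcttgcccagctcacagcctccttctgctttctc
Plcb4, chr2:135853164-135853363: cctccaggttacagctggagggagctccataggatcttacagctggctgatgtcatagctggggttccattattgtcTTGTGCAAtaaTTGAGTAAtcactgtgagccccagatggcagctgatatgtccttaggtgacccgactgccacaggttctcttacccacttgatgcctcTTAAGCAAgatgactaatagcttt

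An intronic element of Igf1, the insulin-like growth factor that the study names, had no match to the C/EBP consensus over its whole length. Its central 200 bp is given as an example of the 191 lost elements without a match there. In this sequence the capitals mark matches to any of the 11 motifs searched. It holds a RUNX match, AACCACA, and an E-box match, CAGCTG.
Igf1, chr10:87901931-87902130: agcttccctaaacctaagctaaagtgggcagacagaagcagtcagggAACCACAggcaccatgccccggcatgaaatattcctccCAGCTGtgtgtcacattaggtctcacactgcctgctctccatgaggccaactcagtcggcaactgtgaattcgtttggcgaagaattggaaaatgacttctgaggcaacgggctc

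In WT cells the lost distal elements ranged from 5.69 to 8.53 with a median of 6.29, or 78.2 normalised reads. In dKO cells they ranged from 1.45 to 6.05 with a median of 3.66, or 12.6 normalised reads. The median difference was -2.56 on the log2 scale, a 5.90-fold fall, with quartiles of -3.08 and -2.20. The falls were unevenly spread: 162 elements (47.5%) fell by 2 to 2.5 log2 units, 85 by more than 2.5 and up to 3, 64 by more than 3 and up to 4, and 30 (8.80%) by more than 4. Of the 341 elements, 33 were at most 1 log2 unit above the 1.43 limit, where a group mean rests on few reads and a fold is least precise.

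**Figure D1:**
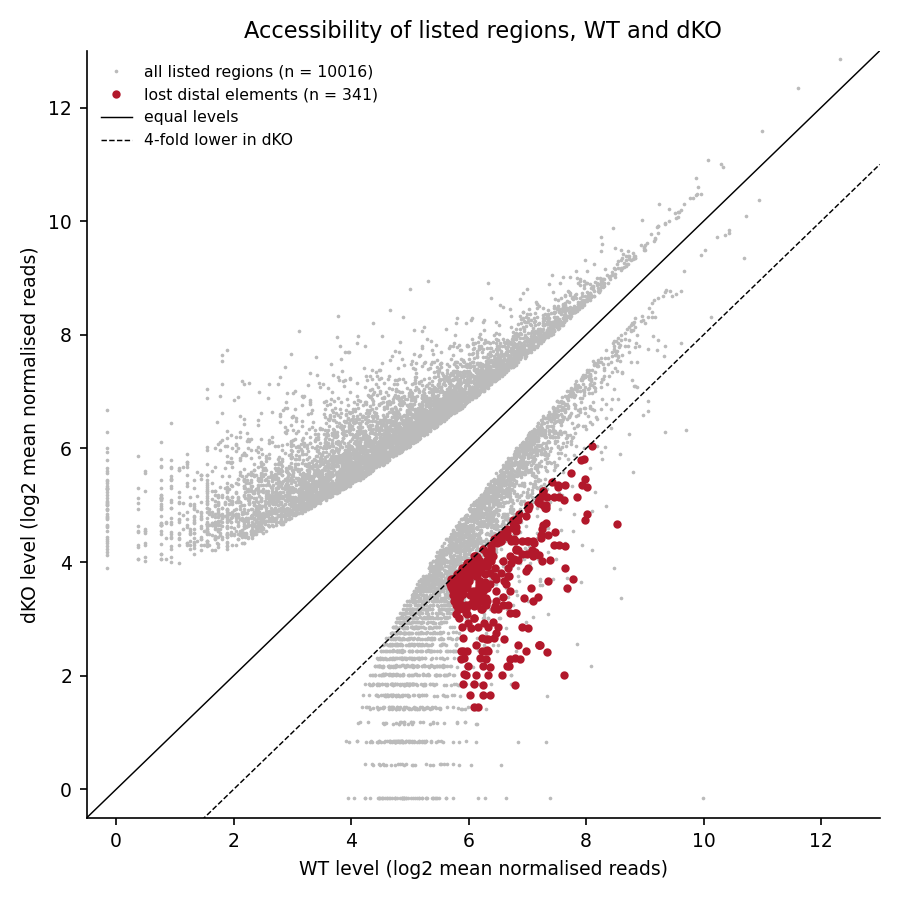
The authors' log2 mean of normalised reads in WT (x axis) and dKO (y axis) for all 10016 listed regions in grey and the 341 lost distal elements in red. The solid line marks equal levels and the dashed line a level 4-fold lower in dKO, which bounds the red points by the selection. The empty band along the solid line arises because only regions past the authors' threshold are listed.

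Across the 341 lost elements, higher WT levels went with somewhat larger falls, with a rank correlation of -0.23 between the WT level and the difference. Both share the WT value, and under the limits on the mean and dKO levels the lowest WT level allowed rises with the fall. The correlation was thus fixed in part by the selection. The strongest element lay 81156 bp downstream of the start of Kif26a, which encodes an atypical kinesin (chr12:112227364-112227839, intergenic). Its level was 8.53 in WT and 4.68 in dKO, a 14.4-fold fall. The next, 62165 bp upstream of Zfp148, a zinc finger transcription factor (chr16:33317773-33318671, intergenic), went from 8.11 to 6.05, the highest dKO level among the lost elements. An intronic element of Hrh1, the gene of a histamine receptor (chr6:114400296-114400803), went from 8.02 to 4.85. The others of the 8 strongest lay nearest to Zbtb7c (8.01 to 5.33), Aspg (7.99 to 4.74), Fam92b (7.99 to 5.47), CN725425 (7.97 to 5.82) and Gramd3 (7.93 to 5.36). All 8 had a dKO level of 4.68 or more, above the median of the lost elements.

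None of the 8 strongest elements was among the 8 with the largest fall. The element with the largest fall lay in an intron of Pex14, which encodes a docking protein of the peroxisomal import machinery (chr4:149062221-149062981), and went from 7.62 to 2.02, or 48.5-fold lower. An element 3755 bp upstream of Adgrd1, an adhesion G protein-coupled receptor gene (chr5:129092292-129092995), went from 6.79 to 1.84. An element nearest to Gm26897 (chr5:111799684-111800363) went from 7.33 to 2.42. These 3 fell by more than 4.9 log2 units, and their dKO levels correspond to few reads per library. Others of the 8 largest falls lay between -4.71 and -4.65. Among their nearest genes were Afap1, which encodes an actin filament-associated protein (6.37 to 1.66), Nectin1, a cell adhesion molecule (6.16 to 1.45), Dnajc6, the clathrin uncoating factor auxilin (7.20 to 2.54), and Adgra1, a further adhesion receptor (7.20 to 2.55).

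At the edges of the selection, values differed little between elements inside and regions outside. For the mean level, elements at 5.00, such as those nearest to Afap1 and 2010300C02Rik, faced regions at 4.99, such as those nearest to Tes3-ps and Tmc5. Elements at a difference of -2, such as those near Bod1 and Hspa12a, faced regions at -1.99, such as those near Ppp1r3b and Akap2. For the dKO level, elements at 1.45 near Anks1 and Nectin1 faced regions at 1.42 near Farp1 and 1.16 near Map3k1. For the distance to any start site, elements at 1043 bp near Afap1 and 1111 bp near Ankrd26 faced regions at 970 bp near Shroom3 and 933 bp near Tspan11. For the distance to a coding start site, elements at 97874 bp near AL607142.1 and 97045 bp near Tfap2c faced regions at 101052 bp near Pmepa1 and 101271 bp near Tpgs2.

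To show where the lost distal elements differed from others, 2 sets with the same conditions on mean level and position were used. The 1165 mildly lower distal elements fell by less than 2 log2 units, and the 390 gained distal elements rose by at least 2. The sets were close in shape. Lost elements had a median width of 446 bp and a median GC content of 51.0% in the central 200 bp, against 450 bp and 50.5% for mildly lower and 418 bp and 49.0% for gained elements. The share of repeat-masked bases had a median of 2% in lost and mildly lower elements and 10% in gained elements.

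C/EBP consensus matches were found in 150 of the 341 lost distal elements, or 44.0% (95% Wilson interval 38.8 to 49.3%). In windows of the same length 2 kb to either side the share was 13.9% of 676, which was 30.1 points lower (95% Newcombe interval 24.2 to 35.9). Over all listed regions the share was 28.4%. Gained elements held a match in 20%, and lost elements exceeded them by 24.0 points (17.3 to 30.4). Mildly lower elements held one in 43.5%, so that the difference was 0.47 points (-5.44 to 6.48). A larger fall thus did not come with a detectably larger share of matches, although the interval leaves room for about 6 points either way. With a mean level of at least 4 in place of 5, that difference was 5.36 points (1.16 to 9.55).

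Among the lost elements the size of the fall varied little with the number of matches. The 191 without a match had a median difference of -2.52, the 122 with a single match -2.56, the 24 with 2 matches -2.58 and the 4 with 3 or more -2.84. Across the 341 elements the rank correlation between the number of matches and the difference was -0.03, given as a description over regions of the same 4 libraries. The median WT level was 6.30 in elements with a match and 6.28 in those without. Elements without a match had a GC content of 52.5% (median), against 48.5% in those with one. The region with the largest fall, in Pex14, had no match over its whole length.

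Matches were densest near the centre of the elements. Within 50 bp of the centre there were 32.0 matches per 100 elements, against 6.01 per 100 bp and 100 elements at 400 to 500 bp from it. Mildly lower elements showed the same shape, with 33.9 and 8.50, and gained elements were nearly flat, with 11.5 and 10.0. In the lost elements the share with a match was 27.6% in the central 100 bp and 60.7% over the whole region.

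**Figure D2:**
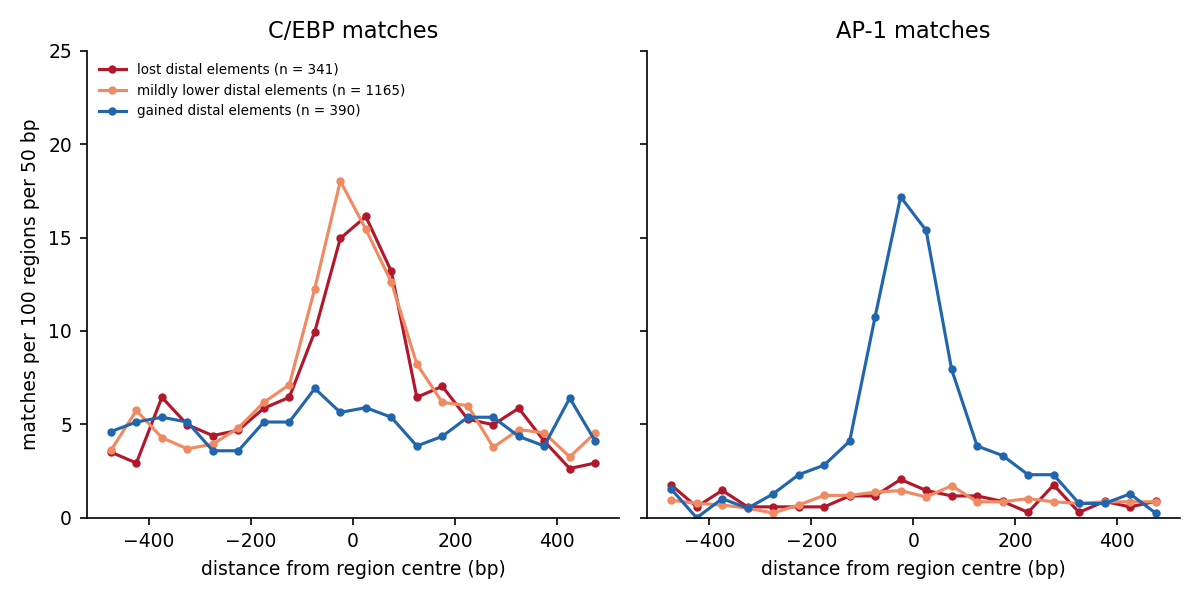
Matches to the C/EBP consensus (left) and to AP-1 (right) per 100 regions in bins of 50 bp, by distance from the region centre in bp, for 341 lost (red), 1165 mildly lower (orange) and 390 gained (blue) distal elements. In lost elements C/EBP matches rise to 16.1 per 100 regions beside the centre and AP-1 matches stay at or below 2.05; in gained elements the AP-1 peak reaches 17.2.

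The C/EBP-ATF composite, TGATGCAA, is bound by dimers of a C/EBP and an ATF protein and cannot itself match the C/EBP consensus searched here. It was present in 24 lost elements (7.04%, 4.77 to 10.3%), in 4.64% of mildly lower elements, in 1.03% of gained elements and in 0.89% of the windows beside the lost elements. Lost elements exceeded gained elements by 6.01 points (3.25 to 9.29), and mildly lower ones by 2.40 points with an interval that holds 0 (-0.24 to 5.79). Either the consensus or the composite was present in 161 lost elements (47.2%), in 46.4% of mildly lower and 20.8% of gained elements, and in 30.1% of all listed regions. The palindrome TTGCGCAA, a special case of the consensus, was found in 1 lost element.

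AP-1 set the lost elements apart from the gained ones most clearly. AP-1, a dimer of FOS and JUN proteins, has the sites TGACTCA and TGAGTCA, which were present in 20 lost elements (5.87%, 3.83 to 8.89%) and in 156 gained elements (40.0%), a difference of -34.1 points (-39.5 to -28.5). The windows beside the lost elements held it in 3.70%. PU.1, an ETS factor of myeloid and B cells, was searched as GAGGAAGT and was present in 4.11% of lost and 14.6% of gained elements, a difference of -10.5 points (-14.7 to -6.37). Both motifs were less common in lost elements than over all listed regions, which held AP-1 in 17.9% and PU.1 in 9.22%. The windows beside the lost elements held PU.1 in 1.04%, and the lost elements exceeded them by 3.07 points (1.10 to 5.79). The motif AGATAAG, bound by the GATA factors of erythroid and mast cells, was present in 4 lost elements (1.17%) and in 4.36% of gained ones, -3.19 points (-5.80 to -0.76).

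The remaining motifs are given in the order lost, mildly lower and gained. RUNX (AACCACA) was present in 8.21% of lost, 10.3% of mildly lower and 12.1% of gained elements. The MYB motif (AACNGTT or TAACNG, which can overlap each other) was present in 21.1%, 25.7% and 27.4%, and in 20% of the windows beside the lost elements. The difference between lost and gained elements was -6.32 points for MYB (-12.4 to -0.07). The IRF motif (GAAANNGAA) was present in 4.69%, 4.64% and 5.38%. The E-box CAGCTG was present in 20.8%, 17.3% and 15.4%, against 10.1% beside the lost elements, and the CTCF core (AGNNGGCNC) in 16.4%, 17.3% and 11.0%. The windows beside the lost elements held RUNX in 3.85%, IRF in 5.92% and the CTCF core in 10.2%. For the CTCF core, lost elements exceeded gained ones by 5.40 points (0.41 to 10.5), while the intervals for RUNX (-3.84), IRF (-0.69) and the E-box (5.44) held 0. None of the 11 motifs differed between lost and mildly lower elements by an interval that left out 0. In all, 33 differences were computed and their intervals were not widened for that number. No match to any of the 11 motifs was found in 66 lost elements (19.4%).

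**Figure D3:**
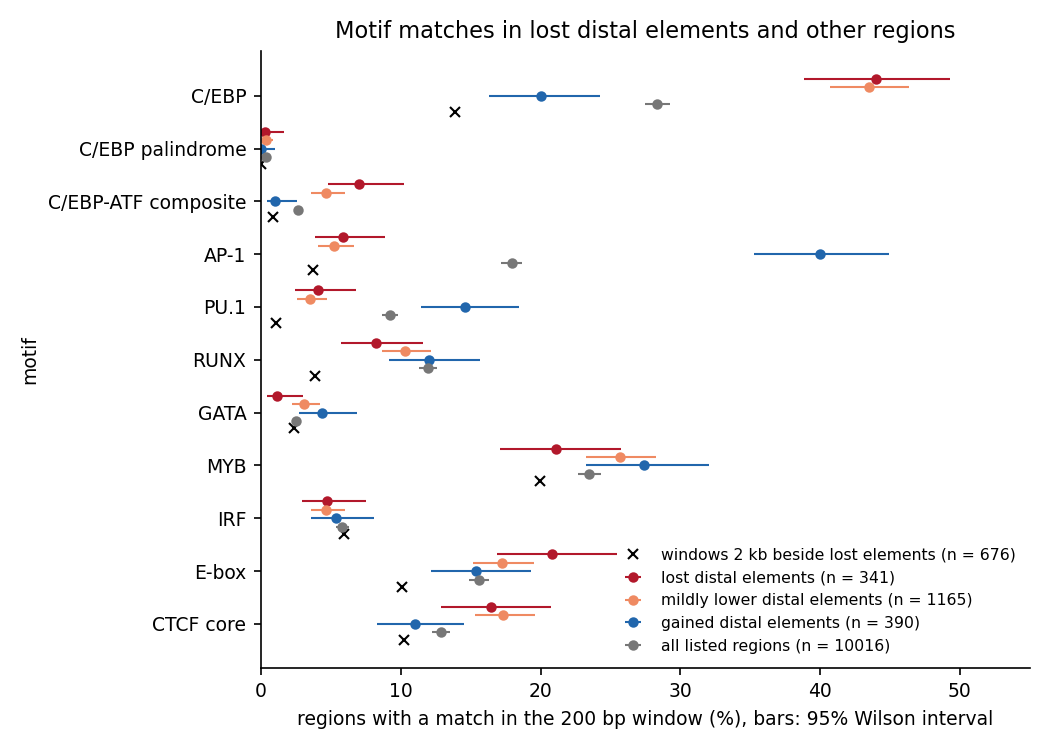
Share of regions (x axis, percent) with at least 1 match to each of 11 motifs (y axis) in the central 200 bp, with 95% Wilson intervals, for lost, mildly lower and gained distal elements and all listed regions. Crosses give the 676 windows 2 kb beside lost elements. Lost and mildly lower elements lie together at 44.0% and 43.5% for C/EBP, and gained elements stand apart at 40.0% for AP-1.

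Among the lost distal elements, 198 (58.1%, 52.8 to 63.2%) had their centre in an intron, 120 (35.2%) lay between genes and 23 (6.74%) in an exon. The intron share was 55.2% in mildly lower elements, a difference of 2.87 points (-3.14 to 8.74). Counting introns of protein-coding transcripts alone, the shares were 56.3% and 49.7%, a difference of 6.61 points (0.57 to 12.5). The median distance to the nearest coding start site was 25482 bp, against 18830 bp for mildly lower elements. At most 10 kb away lay 82 lost elements (24.0%), against 30.8% of mildly lower elements and 34.2% of all listed regions. More than 50 kb away lay 87 (25.5%), against 19.2% and 28.9%. All listed regions were not held to the distance limits of the selection, so their shares by distance are not directly comparable. Of the 341 elements, 199 lay downstream and 142 upstream of that start site, and 173 lay within a transcript of the gene itself.

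The lost elements were spread over 311 nearest coding genes, and 26 of these genes were nearest to 2 or more elements. Afap1 was nearest to 4, all with a fall of at least 3.34 log2 units. The first 3 lay close together, at chr5:35888958-35889221 (6.23 to 2.43), chr5:35898276-35898599 (6.37 to 1.66) and chr5:35899050-35899386 (5.88 to 2.30), and the last at chr5:35914125-35914550 (6.27 to 2.93). The other 5 listed regions nearest to Afap1, a gene singled out for its number of lost elements, were lower in dKO as well, where 39.7% of all listed regions were lower. Among them were the promoter (9.05 to 6.84) and 2 intronic regions at the lowest level in the table.

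Plcb4, which encodes a phospholipase C that acts downstream of G protein-coupled receptors, was nearest to 3 lost elements. Their levels went from 7.84 to 5.14, from 7.54 to 4.31 and from 6.45 to 3.89, and they held 3, 3 and 1 C/EBP matches. The other 3 listed regions nearest to Plcb4 were also lower. The 3 elements nearest to Ankrd26 lay within Cacna1c, a calcium channel gene, and went from 6.71 to 4.10, 6.42 to 4.10 and 6.14 to 3.49. Aspg, an asparaginase gene, had elements at 6.34 to 2.43 and 7.99 to 4.74, Micall2 at 7.92 to 5.80 and 6.18 to 3.65, and Unc79 at 6.77 to 4.05 and 7.34 to 5.14.

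From 5 lists of 531 genes of blood and myeloid cells and their signalling, 8 genes were nearest to 10 lost elements (2.93%), against 5.75% of mildly lower elements, 9.49% of gained elements and 7.64% of all listed regions. Of 116 transcription factors of blood cells, 1 was nearest to a lost element (0.29%). The share was 1.97% for mildly lower elements, 2.82% for gained elements and 2.62% for all listed regions. The factor nearest to a lost element was Bach2, a repressor of the basic leucine zipper family, whose intronic element went from 5.92 to 2.03. None of 91 genes of granule proteins and effector enzymes was nearest to one, where the share over all listed regions was 0.57%, and 0.34% and 0.51% for mildly lower and gained elements. Of 128 receptors and surface molecules, 2 were, at 0.59% of lost elements against 0.69% of mildly lower elements, 2.56% of gained elements and 1.65% of all listed regions. They were Igf2r, which takes up insulin-like growth factor 2 and mannose 6-phosphate-tagged enzymes (7.65 to 5.36), and Marco, a scavenger receptor of macrophages (5.73 to 3.49). Of 136 signalling regulators, 2 were, at 0.59% against 2.40% of mildly lower elements, 2.56% of gained elements and 2.19% of all listed regions. They were Cish, an inhibitor of cytokine signalling (6.76 to 4.60), and Dock5, an activator of Rac (6.20 to 3.90).

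Of 60 cytokines, chemokines and growth factors, 3 were nearest to 5 lost elements (1.47%), against 0.34% of mildly lower elements, 1.03% of gained elements and 0.62% of all listed regions. An intronic element of Jag1, a Notch ligand, went from 7.18 to 5.06. The 2 elements nearest to Pdgfa, a growth factor of mesenchymal cells, went from 6.69 to 3.76 and from 5.90 to 2.66. The Igf1 elements went from 6.12 to 2.55 (chr10:87901750-87902311) and from 5.72 to 3.55, an 11.9-fold and a 4.50-fold fall. Of the 3 other listed regions nearest to Igf1, 2 were lower and 1 was higher in dKO, at 3.80 in WT and 5.84 in dKO. Of the 49 genes that the study names, chosen there on these cells, Igf1 and Igf2r were nearest to 3 lost elements (0.88%), against 1.01% of all listed regions.

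**Figure D4:**
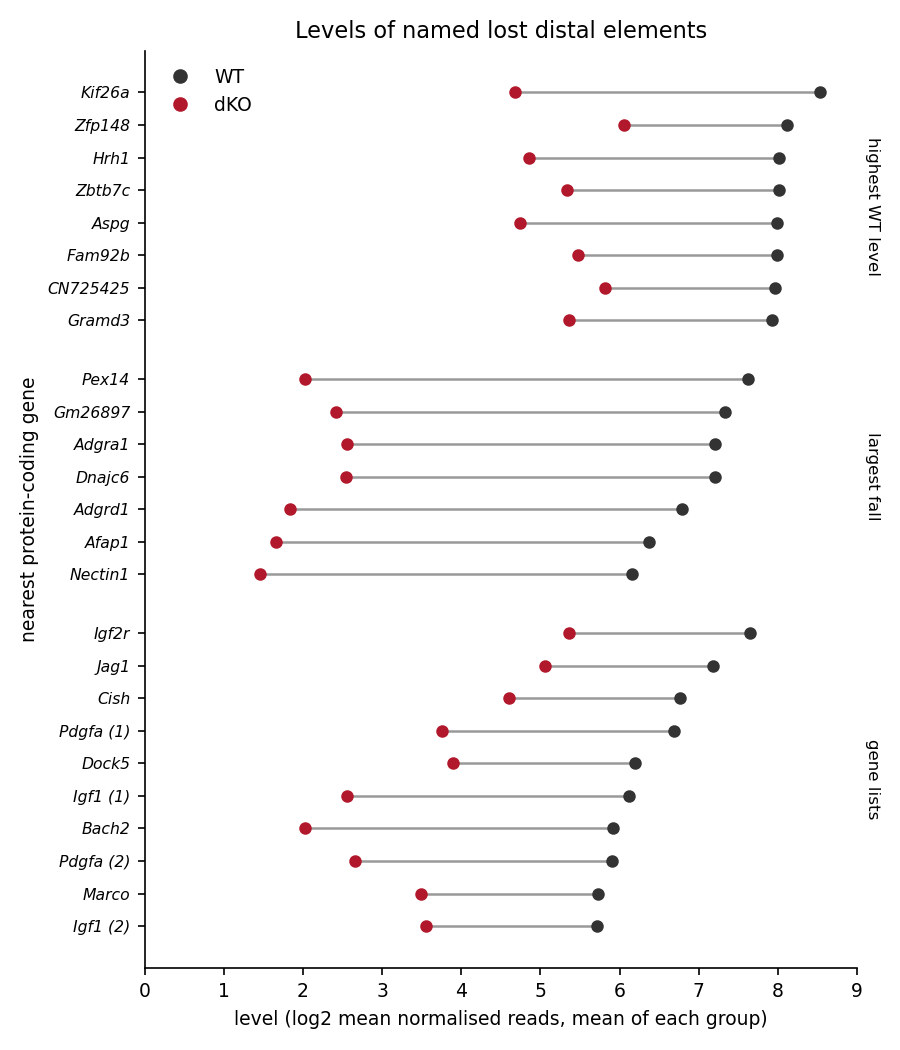
Levels (x axis, the authors' log2 mean of normalised reads) of 25 named lost distal elements (y axis, nearest coding gene) in WT (black) and dKO (red), joined by a line and grouped by why they were named. Numbers in brackets tell apart elements nearest to the same gene. The strongest elements end at 4.68 to 6.05 in dKO, and those with the largest fall at 1.45 to 2.55.

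Listed promoters of the nearest genes were mostly lower too. For 55 lost elements the nearest coding gene had a listed region within 1 kb of a coding start site. These were 47 genes, of which 43 had only lower promoter regions, 3 only higher ones and 1 both. The same count was 87 of 107 genes for mildly lower elements and 7 of 60 genes for gained elements. Counted by region, 51 of the 56 promoter regions of genes nearest to lost elements were lower in dKO. Over all 1216 listed promoter regions, 45.0% were lower. The 56 regions had a median difference of -1.94, and 27 were at least 4-fold lower. Of the genes named above, the Igf2r promoter went from 6.64 to 2.84, while a further listed region nearest to Igf2r was higher in dKO (5.50 to 6.83). The Bach2 promoter went from 4.90 to 2.95, the Jag1 promoter from 9.05 to 6.66 and a Hrh1 promoter from 6.47 to 3.61. Kif26a had promoter regions at 7.21 to 3.70 and at 5.72 to 4.28, and those of Nectin1 went from 6.18 to 1.85 and from 7.36 to 4.60.

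**Figure D5:**
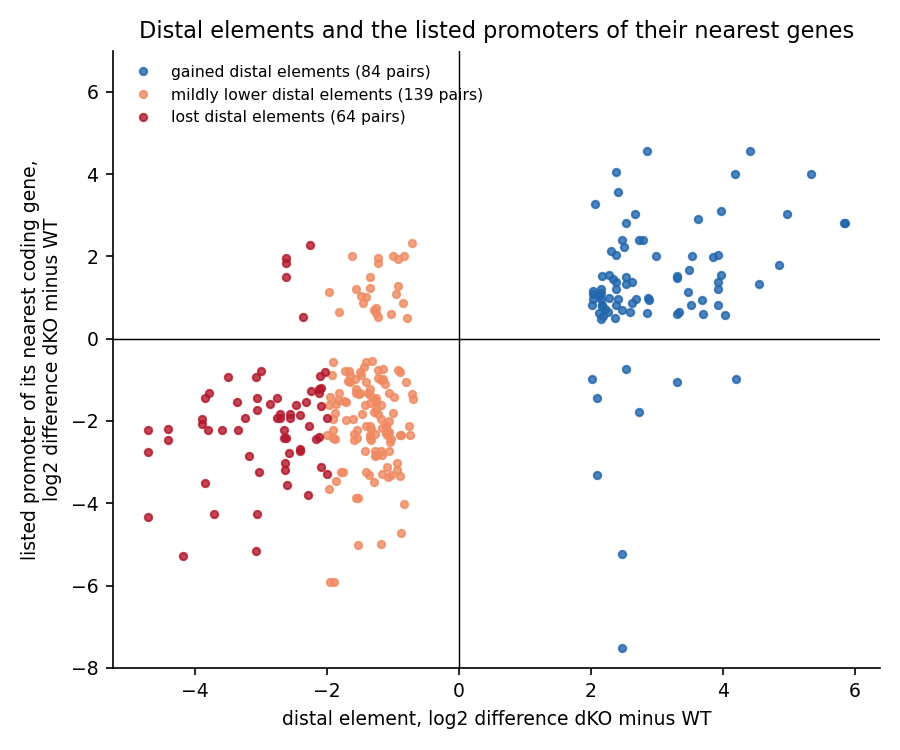
Log2 difference dKO minus WT of each distal element (x axis) and of each listed promoter region of its nearest coding gene (y axis), for lost (64 pairs, red), mildly lower (139 pairs, orange) and gained (84 pairs, blue) elements. Most red points lie below the horizontal line at 0 and most blue points above it.

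Regions near the lost elements were counted among the 8120 listed regions in none of the 3 sets of distal elements, so that the same regions could be neighbours of each set. This choice was made after the data were seen. Of those regions 30.5% were lower in dKO. Within 50 kb of a lost element lay 216 of them, of which 172 (79.6%) were lower. Around mildly lower elements 52.3% of 629 were lower, and around gained elements 6.51% of 461. Of the 341 lost elements, 177 had no such region within 50 kb. The share followed the selection, with 87.5% at a limit of -3 and 62.1% after centring on the median of all listed regions. Within 10 kb of another lost element lay 11 of the 341, as 6 adjacent pairs near Afap1, Papola, Ttr, Micall2 and Ppfibp2. Within 50 kb of another lay 53. The same counts were not made for mildly lower and gained elements. By chromosome, lost elements made up between 4.19% (chromosome 10) and 15.0% (chromosome 7, with 34 elements) of the strong distal listed regions, with 13.3% on chromosome 12 and 12.4% on chromosome 4.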

How the data were processed

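ATAC-seq had been performed on WT, dKO and dKO-LAP* MLL-ENL-transformed mouse cells, with 2 samples per group. The authors processed the reads with PiGx, aligned them to mm10 with Bowtie 2, called peaks with MACS2 and compared groups with DiffBind 2.14.0, listing regions at a corrected P up to 0.05. How peaks were merged, whether duplicates were removed and whether cut sites were shifted for Tn5 is not given in the sources used here. Kept duplicates would raise strongly amplified regions, and an absent shift would displace edges by a few bases. The authors deposited log2 means of normalised reads over both groups and within WT and dKO, and columns of their own comparison (fold change, p-value, FDR), which were not used. Both deposited tables were identical, so dKO-LAP* was not analysed here. Only regions past the authors' threshold are listed, and no unchanged region served as background.

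Differences were computed as the dKO minus the WT level. The limit of 1.43 is 3 times the lowest level in the table (-0.15). Start sites came from GENCODE M21, measured from the nearer edge, and sequence from RefSeq GRCm38.p6, whose chromosomes are those of mm10. Motifs were searched as exact strings on both strands in the central 200 bp with Python 3.11.15, pysam 0.24.0 and pandas 2.3.3. Shares carry 95% Wilson intervals and differences 95% Newcombe intervals (statsmodels 0.14.6), both two-sided and for counting error only, since regions are not replicates. The search, the nearest start site and the intervals were tested on simulated data. Named elements were the 8 with the highest WT level, the 8 with the largest fall, up to 5 per gene list, those of the 6 genes nearest to the most elements, and those at each threshold. Other genes named from counts were chosen after their values were seen. The elements, lists and motifs were chosen with earlier results of these data known. Alternatives are described in the closing section. The values of 1 named element and the sequence of another are not reported here.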

Additional observations from a re-analysis of the deposited data

How the results depend on the processing

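The number of lost elements followed the selection: 89 at a mean level of at least 6 and 842 at 4, 96 at a difference of at most -3 and 675 at -1.5, 1272 after centring on the median of all listed regions (0.98), and 133 at most 20 kb from a coding start site. In that order the genes with 2 or more elements numbered 2, 85, 7, 56, 135 and 6, and 16 by the nearest start site of any gene. The median difference became -3.69 at a limit of -3, -2 at -1.5 and -1.54 after centring. The C/EBP share was 27.6% in the central 100 bp, 60.7% over the whole region and 31.4% for TTGCNNAA only, and stayed between 40.2 and 48.5% under the 9 changes of the selection. Its excess over gained elements kept its sign and its interval above 0 under all 12 alternatives (17.3 to 30.8 points). Its difference from mildly lower elements, whose interval held 0, turned negative at a limit of -3 (-3.20 points), beyond 5 kb from any start site (-4.44) and within 20 kb of a coding one (-0.61), each with an interval that held 0. It was above 0 at a mean level of 4 (5.36) and after centring (19.0), where the compared set holds regions higher in dKO by construction. The intron share was 66.2% within 20 kb, and its difference from mildly lower elements was -2.90 points at a limit of -3 and 6.61 for introns of protein-coding transcripts. The shares of lower promoters (88.3 to 100%) and lower neighbours (62.1 to 87.5%) were recomputed under 9 alternatives added after the data were seen. No paired analysis was possible because values per library are absent from the table used, which holds means of each group, and for the same reason no replicate could be left out. Group means near the 1.43 limit rest on few reads, and the table gives no depth per library.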
